A study of Mus musculus with 16 samples.

Results

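The 10 genes described here encode the 2 cytoplasmic actins (Actb and Actg1), small proteins that bind actin monomers (the thymosins Tmsb4x and Tmsb10, and the profilin Pfn1), proteins that act on actin filaments (the cofilin Cfl1, the coronin Coro1a, the transgelin Tagln2 and the leukocyte protein Lsp1) and vimentin (Vim), an intermediate filament protein. They were chosen by name, as the rows of the series' expression table with these symbols, and make up 10 of its 13982 genes. All 10 passed the filter on low values used for testing, at least 1 FPKM (fragments scaled by the length of the transcript and by the fragments of the library) in at least 4 libraries. The study sequenced RNA of cells that were stained for CD45 and CD11b, sorted from cortex (infarct cortex, in the protocol's words) and labelled as microglia, the resident macrophages of the brain. There were 4 groups of 4 libraries from mice labelled C57BL/6. Sham mice, which in such designs are operated without occlusion, are labelled untreated, MCAO mice had the middle cerebral artery occluded (a model of ischemic stroke), and 2 further groups, MCAO+Ctrl-exos and MCAO+AS-exos, had the same occlusion and were given exosomes, small extracellular vesicles. The dose was 150 µg into a tail vein, starting on the day of the operation and repeated at intervals of 3 days. The exosomes came from plasma of Apoe knockout mice, and donors ate either a western diet, given for 12 weeks to induce atherosclerosis, or a normal diet. The labels do not say in words which code stands for which diet. The age and sex of the mice, the length of the occlusion, the time from surgery to sorting and whether a library is 1 mouse or a pool are not stated in the labels, so the p-values measure the spread between these libraries. MCAO mice given no exosomes are not said to have had a vehicle injection.

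A cell keeps a pool of single actin molecules (G-actin) and a network of filaments (F-actin), and moves, spreads and engulfs by turning one into the other. Thymosins hold monomers in reserve, profilin hands them to growing filament ends, cofilin cuts and disassembles old filaments, and coronins help to clear and recycle branched networks. Microglia in healthy cortex are ramified cells with thin moving processes. Vimentin is known as a marker of reactive and migrating cells, blood-derived myeloid cells among them, and is low in resting microglia.

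In these libraries the members held 4.75% of all FPKM in Sham (3.67 to 5.20%), 4.90% in MCAO (4.46 to 5.26%), 4.54% in MCAO+Ctrl-exos (3.85 to 5.13%) and 4.47% in MCAO+AS-exos (4.25 to 4.78%). Most of it was Tmsb4x, which made up 3.81% of all FPKM in Sham and 2.94% in MCAO, and whose mean level ranked second of all genes in Sham and first in MCAO. FPKM summed to between 758283 and 983648 in a library, with 8813 to 10003 genes at 1 FPKM or more. The files hold no counts, the values stop at 2 decimals, and the depth of each library is unknown.

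The label microglia was checked against marker genes. The 12 homeostatic microglia markers, such as the purinergic receptor P2ry12, summed to between 22599 and 25050.3 FPKM in Sham and to between 1315 and 2107 in MCAO, and all 12 were lower in MCAO (limma, adjusted p below 0.05). P2ry12 itself was 3156 to 5377 FPKM in Sham and 42.3 to 51.9 in MCAO. Monocyte markers summed to between 217 and 597 FPKM in Sham and 9408 to 13468 in MCAO, with 11 of 12 higher. Neutrophil markers summed to between 76.8 and 144 FPKM in Sham and 1723 to 9985 in MCAO, with 7 of 9 tested higher, and border macrophage markers to between 13.9 and 69.7 and 1972 to 4593, with 8 of 9 higher. F13a1 is on both the monocyte and the border macrophage list, and Ly6c1 on both the monocyte and the endothelial list, so these sums are not separate. Of the defining markers, the monocyte gene Ly6c2 was 0.31 to 0.46 FPKM in Sham and 61.1 to 248 in MCAO. Markers of mural cells and fibroblasts summed to at most 5.43 FPKM in any library, those of neurons to at most 5.37, those of T and NK cells to at most 3.38 and those of endothelial cells to at most 65.3. These sums rest on 3 of 11, 3 of 6, 3 of 10 and 6 of 8 listed markers, in that order, since the others were not available. They therefore do not show that such cells were absent. Astrocyte markers summed to between 56.9 and 107 FPKM in Sham and 5.08 to 14.7 in MCAO. Nearly all of the Sham sum was Slc1a3 (56.9 to 107 FPKM, and 0.03 to 0.71 in MCAO), and of the 3 tested 1, Slc1a3, was lower and 1, Gja1, higher. Dendritic cell markers summed to between 1974 and 2340.5 FPKM in Sham and 15.4 to 147 in MCAO. The Sham sum was almost wholly Siglech, which is also on the microglia list, and of the 7 tested 1, Siglech, was lower and 3, Flt3, Cd209a and Ccr7, were higher, with a median log2 fold change of 0.7. In the 2 exosome groups the homeostatic markers summed to at most 2209 FPKM and the monocyte markers to at least 9593, so all 3 MCAO groups were low in the former and high in the latter. In bulk RNA of this kind, fewer cells of a type and less RNA per cell cannot be told apart, and the part of these markers in any result below was not tested.

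Positions are those of the mouse build GRCm38 from GENCODE M21, since the files hold no coordinates. Vim (ENSMUSG00000026728.9) is at chr2:13573927-13582826 on the plus strand. Tmsb4x (ENSMUSG00000049775.16) is at chrX:167207093-167209315 and Tmsb10 (ENSMUSG00000079523.8) at chr6:72957347-72958748, both on the minus strand. Actb (ENSMUSG00000029580.14) is at chr5:142903115-142906754 and Actg1 (ENSMUSG00000062825.15) at chr11:120345690-120348542, both on the minus strand. Pfn1 (ENSMUSG00000018293.4, chr11:70651850-70654644, minus), Cfl1 (ENSMUSG00000056201.8, chr19:5490455-5495201, plus), Coro1a (ENSMUSG00000030707.15, chr7:126699773-126707787, minus), Tagln2 (ENSMUSG00000026547.15, chr1:172500047-172507380, plus) and Lsp1 (ENSMUSG00000018819.10, chr7:142460809-142494867, plus) complete the set, and all are protein-coding. Actins, thymosins, profilin and cofilin have close homologues or processed pseudogenes elsewhere in the genome, and the labels do not say how reads matching several of them were assigned.

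Because serum response factor (SRF) and its actin-sensing partners MRTF are known to bind a motif called the CArG box at cytoskeletal genes, the RefSeq promoter windows (GRCm38.p6, 250 bases before to 50 after a start) were searched for it and for 3 other motifs, on both strands. Windows were at hand for 8 of the 10 members, 11 windows in all. Actb and Lsp1 had no window, so whether they hold any of these motifs is unknown here. A CArG box stood in 1 of the 8 searched genes, Actg1 (1 of the 11 windows), and in 1.63% of all 32851 windows. TATAAA stood in 1, Vim (1 of the 11 windows), and in 13.6% of all windows. GGGCGG stood in 7, all but Vim (10 of the 11 windows), and in 35.7% of all windows. TGANTCA stood in none of the 8 and in 7.81% of all windows. Some genes have several windows, so counts of genes and shares of windows are unlike measures. A TATAAA can lie inside a CArG box, but the hits here were in different genes. The stretches that hold the CArG box and the TATAAA are shown because each was present in a single member of the 8 searched. The motif is in capitals, and positions are counted back from -1 just before the RefSeq start. The Actg1 stretch is chr11:120348556-120348645 on the minus strand, from -150 to -61, with the motif at -90 to -81. The Vim stretch is chr2:13574267-13574296 on the plus strand, from -44 to -15, with the motif at -32 to -27; GENCODE also lists a Vim transcript that starts further upstream. A match of letters is a description and shows no binding.
Actg1: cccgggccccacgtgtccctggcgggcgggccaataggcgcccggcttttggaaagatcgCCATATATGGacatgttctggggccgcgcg
Vim: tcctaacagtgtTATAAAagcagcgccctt

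The first comparison, MCAO against Sham, asked what the occlusion changed in the sorted cells. Of the 10 members, 8 were higher in MCAO and none was lower (limma on log2(FPKM + 1), Benjamini-Hochberg adjusted p below 0.05 over 10846 genes); the exceptions were Tmsb4x and Coro1a. Across all tested genes 24.5% were called higher and 14.8% lower. In the same 8 members every MCAO library lay above every Sham library, against 21.8% of all genes. The median log2 fold change of the members was 1.51, beside 0.25 over all tested genes. Fold changes below are on the log2(FPKM + 1) scale, which understates the change of genes near 0, with the standard error of the fit.

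**Figure D1:**
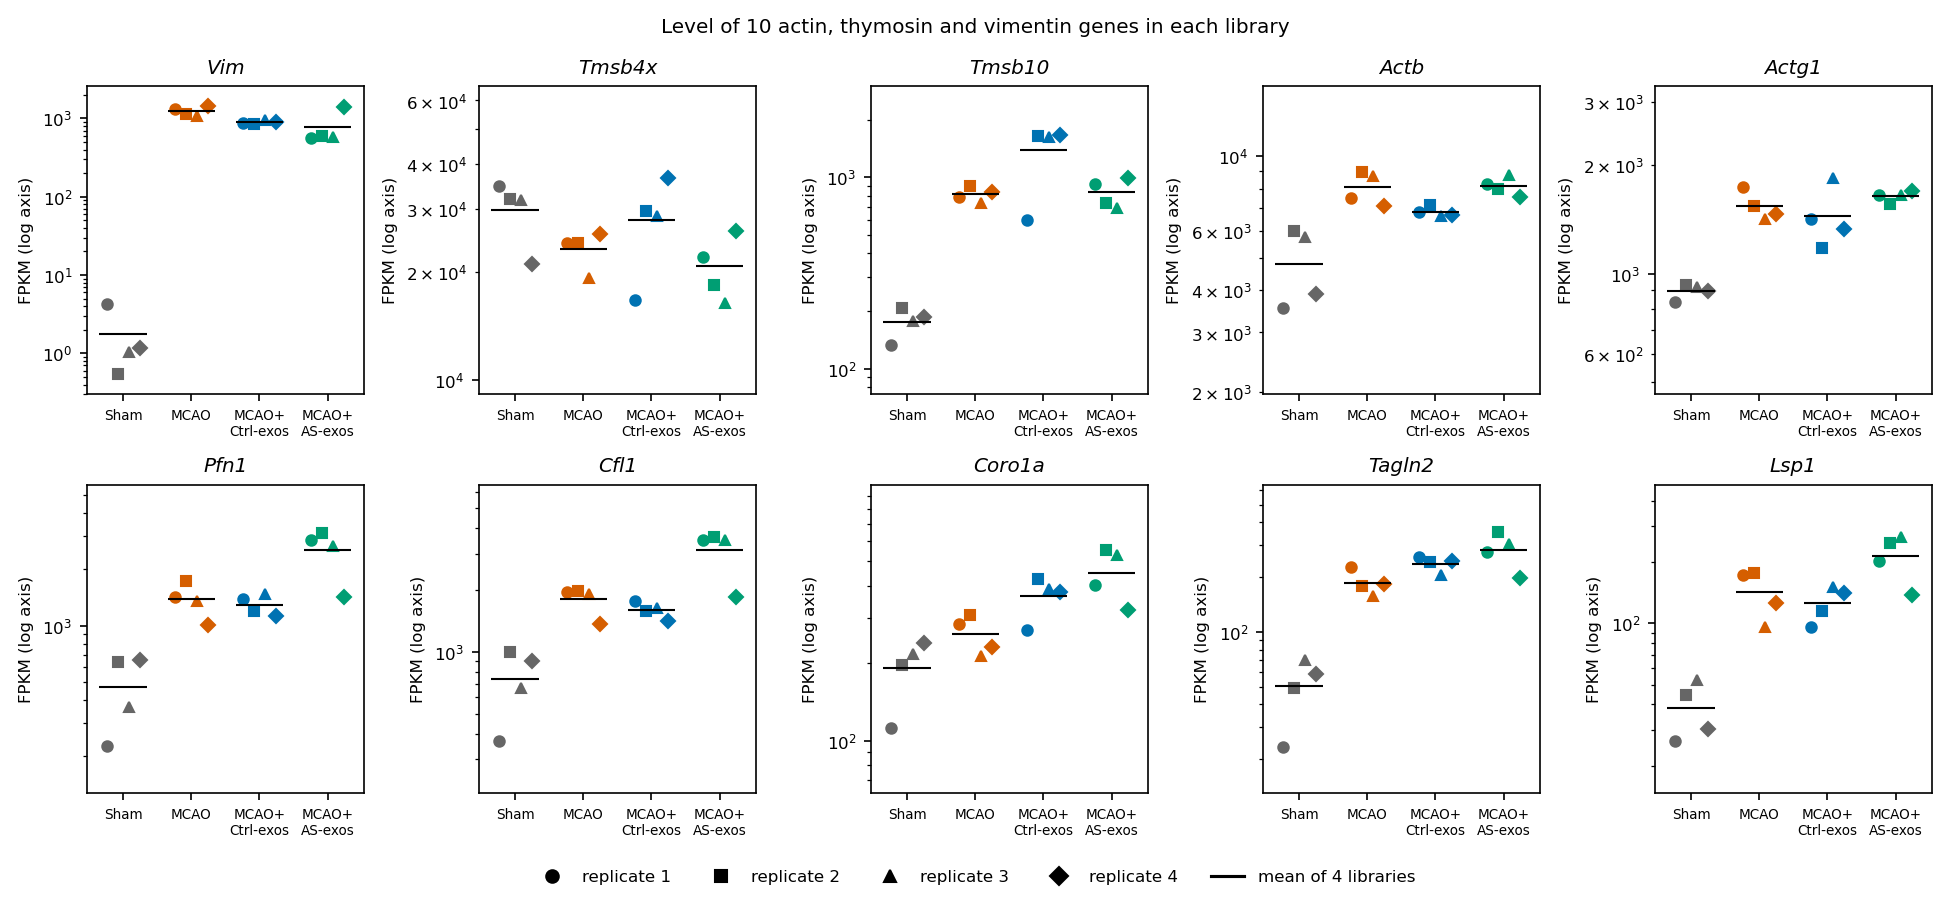
FPKM of each of the 10 genes (log axis, 1 panel per gene) in the 4 libraries of each group, with the symbol giving the replicate number and the line the mean of 4. Vim lies between 0.54 and 4.31 FPKM in Sham and at 553.61 FPKM or more in the other groups, while the Tmsb4x groups overlap.

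Vimentin moved furthest. Its level was 4.31, 0.54, 1.04 and 1.18 FPKM in Sham replicates 1 to 4, and 1312.19, 1152.06, 1068.02 and 1439.29 FPKM in MCAO replicates 1 to 4. The gene was thus close to the filter limit in Sham and far above it in every MCAO library. The means were 1.77 ± 1.72 and 1243 ± 166 FPKM (SD, n = 4), a 703-fold ratio of means, and the fitted log2 fold change was 8.97 ± 0.33 (limma, adjusted p = 2.96e-14). Among all tested genes it had the tenth largest absolute log2 fold change (rank 10). Its mean level rank rose from 9100 in Sham to 121 in MCAO.

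The 2 cytoplasmic actins, the building blocks of the filaments, both rose. Actb was 3542.06, 5981.78, 5733.61 and 3892.13 FPKM in Sham and 7486.07, 8944.68, 8694.43 and 7116.32 in MCAO, 1.68-fold by means (log2 fold change 0.78 ± 0.17, limma adjusted p = 0.00107). Actg1 was 833.07, 931.70, 915.66 and 894.28 FPKM in Sham and 1738.42, 1542.15, 1418.87 and 1459.10 in MCAO, 1.72-fold (0.78 ± 0.16, limma adjusted p = 0.000719). No Sham library reached the lowest MCAO library for either gene. The level of Actg1 relative to Actb was 19.5 ± 4.32% in Sham and 19.3 ± 3.16% in MCAO (SD, n = 4), a log2 difference of 0.0 (exact permutation test, two-sided, p = 1, adjusted over 2 ratios 1). In MCAO+Ctrl-exos the share was 21.2 ± 4.74% and in MCAO+AS-exos 20.2 ± 1.5%. The rise of Actg1 did not pass under quantile normalization (log2 fold change 0.25, adjusted p = 0.305) or after a correction for transcript length and GC content (0.41, adjusted p = 0.0575).

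The 2 thymosins parted. Tmsb4x, the more abundant, was 34716.21, 31860.47, 31722.20 and 20977.37 FPKM in Sham and 24137.63, 24067.08, 19238.43 and 25493.83 in MCAO. These ranges overlap through Sham replicate 4, and the difference did not pass (-0.34 ± 0.22, limma adjusted p = 0.223). Its sign depended on the scaling: it was 0.88 under quantile normalization (limma adjusted p = 0.0244) and -0.53 after the length and GC correction (limma adjusted p = 0.0241). Quantile normalization sets each value by its rank in the library. The mean level of Tmsb4x ranked 2 in Sham and 1 in MCAO, so the 0.88 reflects this rank and shows no measured rise. Tmsb10 was 132.02, 206.25, 176.29 and 186.29 FPKM in Sham and 784.92, 901.94, 730.51 and 840.63 in MCAO, 4.65-fold by means (2.22 ± 0.27, limma adjusted p = 2.21e-06). All MCAO libraries exceeded all Sham libraries by a wide gap.

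Within a library, Tmsb10 relative to Tmsb4x does not depend on a single scaling factor of that library, apart from the pseudocount. Quantile normalization and the length and GC correction shift genes by different amounts and can change this ratio. As deposited, the ratio was 0.38, 0.647, 0.556 and 0.888% in Sham and 3.25, 3.75, 3.8 and 3.3% in MCAO. The means were 0.618 ± 0.211% and 3.52 ± 0.289% (SD, n = 4), a log2 difference of 2.57 or 5.93-fold. The exact permutation test gave p = 0.0286 (two-sided), the smallest that the 70 arrangements of 4 and 4 libraries allow. After adjustment over the 2 ratios it was 0.0571, so the test of this ratio did not pass 0.05. With the other ratio far from its own smallest p, this one could not have passed even with groups fully apart. The ratio was 3.59, 5.61, 5.64 and 4.56% in MCAO+Ctrl-exos and 4.18, 4.0, 4.2 and 3.8% in MCAO+AS-exos.

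**Figure D2:**
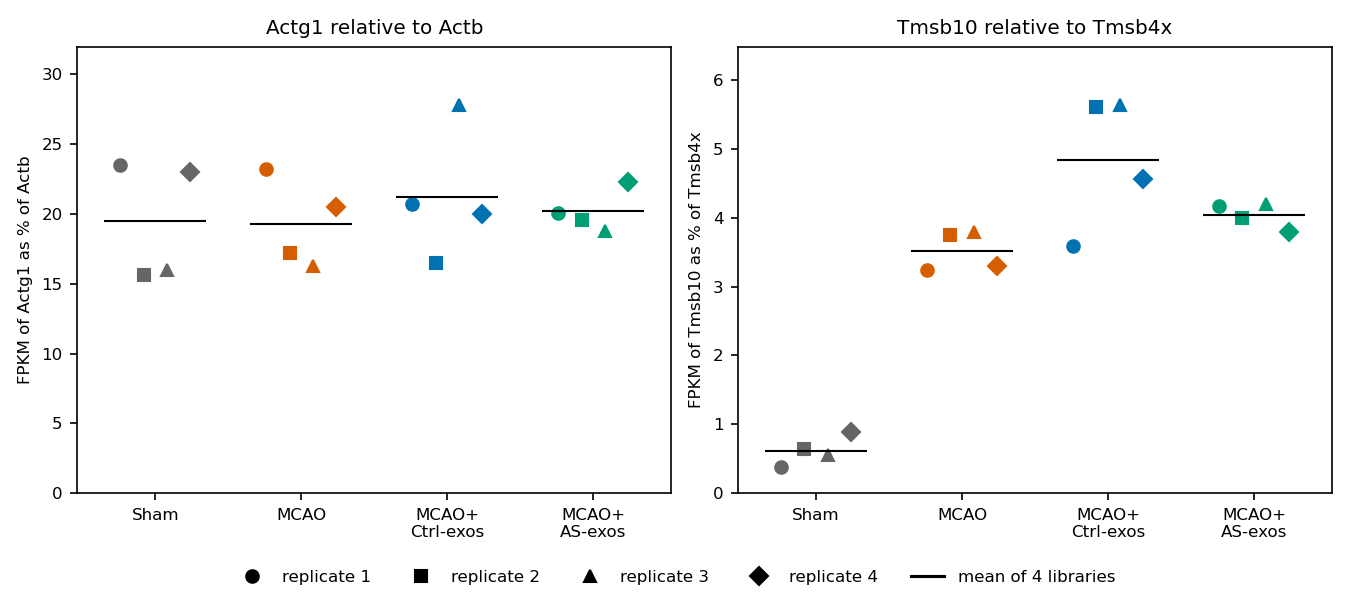
FPKM of Tmsb10 as a percentage of Tmsb4x and of Actg1 as a percentage of Actb, per library and group, with the symbol giving the replicate number and the line the mean of 4. The thymosin ratio is at most 0.888% in Sham and at least 3.25% elsewhere, while the actin ratio overlaps between all groups.

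Profilin and cofilin, which feed and disassemble filaments, rose in MCAO. Pfn1 was 227.63, 635.09, 367.98 and 652.25 FPKM in Sham and 1430.38, 1739.85, 1362.02 and 1007.11 in MCAO, 2.94-fold by means (1.65 ± 0.30, limma adjusted p = 0.000221). Cfl1 was 368.03, 1000.61, 667.90 and 903.05 FPKM in Sham and 1957.13, 1987.73, 1910.54 and 1364.70 in MCAO, 2.46-fold (1.38 ± 0.27, limma adjusted p = 0.000499). For both genes Sham replicate 1 was the lowest Sham library and MCAO replicate 4 the lowest MCAO library, and the groups did not overlap.

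Of the 3 filament-binding genes, 2 rose. Tagln2, a calponin-family protein that stabilizes filaments, was 23.42, 49.53, 70.47 and 58.87 FPKM in Sham and 226.39, 179.74, 156.82 and 182.19 in MCAO, 3.68-fold by means (1.95 ± 0.28, limma adjusted p = 1.56e-05). Lsp1, an F-actin binding protein of leukocytes, was 26.28, 44.56, 52.51 and 30.20 FPKM in Sham and 172.48, 176.63, 96.38 and 125.84 in MCAO, 3.72-fold (1.88 ± 0.28, limma adjusted p = 2.68e-05). Coro1a, the coronin of blood cells, was 112.03, 196.36, 217.55 and 240.33 FPKM in Sham and 285.44, 308.24, 213.95 and 231.69 in MCAO. Its ranges overlap, and the difference was 0.48 ± 0.25 (limma adjusted p = 0.141), and -0.14 after the length and GC correction. Lsp1 and Tagln2 thus left the Sham range in all MCAO libraries, and Coro1a did so in 2 of them.

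FPKM is scaled per length, so levels may be ordered between genes. In Sham the order of the means was Tmsb4x, Actb, Actg1, Cfl1, Pfn1, Coro1a, Tmsb10, Tagln2, Lsp1 and Vim. Neighbouring genes from Actg1 to Tmsb10 overlapped in this order, as did Tagln2 and Lsp1, whereas Tmsb4x, Actb and Vim each stood clear of the next gene. In MCAO the order was Tmsb4x, Actb, Cfl1, Actg1, Pfn1, Vim, Tmsb10, Coro1a, Tagln2 and Lsp1, with overlap between neighbours from Cfl1 to Vim and from Coro1a to Lsp1.

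Other genes of the actin, intermediate filament and tubulin systems were described by lists, 115 genes of which 94 were tested. Of these, 51 were higher in MCAO, 9 were lower and 34 did not pass, and their median log2 fold change was 1.13. That is 54.3% higher and 9.57% lower, beside 24.5% and 14.8% of all tested genes. The split was 47 higher and 12 lower under quantile normalization, and 46 and 14 after the length and GC correction. With each of the 16 libraries left out in turn, between 57 and 61 of them passed in either direction.

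Of the 9 tested genes of the Arp2/3 complex, which starts branched filaments, 5 were higher and 1 lower, with a median of 1.04. Arpc2 went from a mean of 348 to 1063 FPKM (1.61 ± 0.17), Arpc1b from 106 to 585 (2.59 ± 0.30) and Arpc5 from 150.4 to 408 (1.45 ± 0.20). The WASP and WAVE proteins that switch the complex on did not share this direction, with 0 of 9 higher and 3 lower: Brk1 fell from 424 to 227 FPKM (-0.89 ± 0.23), Wasl from 14.7 to 5.65 (-1.31 ± 0.39) and Abi3 from 149 to 66.6 (-1.05 ± 0.35). The call of Abi3 was lost when Sham replicate 2, 3 or 4 or MCAO replicate 3 was left out, with limma adjusted p between 0.0532 and 0.0792. It was also lost with only the 8 libraries compared in the fit (limma adjusted p = 0.0693). Of all tested genes 24.5% were higher and 14.8% lower, and with only 9 genes on this list the contrast was not tested. Of 8 formins, which build straight filaments, 4 were higher, among them Inf2 (0.103 to 18.2 FPKM, 4.04 ± 0.43), Diaph1 (1.74 to 33.8, 3.79 ± 0.49) and Fmnl1 (12.0 to 42.6, 2.06 ± 0.46).

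Capping, severing and monomer-binding genes were higher in 8 of 17 and lower in 1. The barbed-end cappers Capg and Gsn changed from 2.53 to 463 FPKM (7.64 ± 0.45) and from 0.14 to 102 (6.49 ± 0.27), and Wdr1, a partner of cofilin, from 40.9 to 137 (1.82 ± 0.28). Of 12 bundling and cross-linking genes 6 were higher and 3 lower. Iqgap1 went from 1.16 to 100.4 FPKM (5.69 ± 0.34), the filamin Flna from 2.94 to 52.8 (3.90 ± 0.35) and Cotl1 from 111 to 537 (2.34 ± 0.24). Among the relatives of Coro1a and Tagln2, 5 of 6 were higher and none lower, with Coro1c going from 7.60 to 112 FPKM (3.78 ± 0.33), Coro2a from 2.22 to 12.4 (2.14 ± 0.37) and the calponin Cnn2 from 0.28 to 53.0 (5.33 ± 0.31).

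Of 11 tropomyosins and myosins 9 were higher and none lower, among them Tpm4 (17.6 to 113 FPKM, 2.65 ± 0.26), the light chain Myl6 (859.9 to 2768, 1.68 ± 0.22) and Myo5a (0.77 to 24.1, 3.87 ± 0.32). Ezr and Msn, which link the cortex to the membrane, rose from 0.07 to 66.8 FPKM (5.98 ± 0.31) and from 67.1 to 181 (1.42 ± 0.21), and Rdx was the member of that list that did not pass. Srf rose from 2.84 to 17.0 FPKM (2.24 ± 0.44) and its cofactor Mrtfb from 1.67 to 7.19 (1.65 ± 0.47).

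Beside vimentin, 3 of the 4 tested intermediate filament and lamin genes were higher: Lmna (1.34 to 33.8 FPKM, 4.04 ± 0.40), Lmnb1 (0.445 to 20.4, 3.91 ± 0.39) and the linker Plec (mean 0.0125 to 13.6, 3.84 ± 0.35). Of 11 tubulins 7 were higher and 1 lower. Tubb6 went from 5.49 to 107 FPKM (4.05 ± 0.24) and Tuba1c from 42.0 to 347 (3.02 ± 0.20), whereas Tuba1a fell from 507 to 85.8 (-2.55 ± 0.25). The named genes of these lists kept their direction under quantile normalization, equal totals and the length and GC correction.

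**Figure D3:**
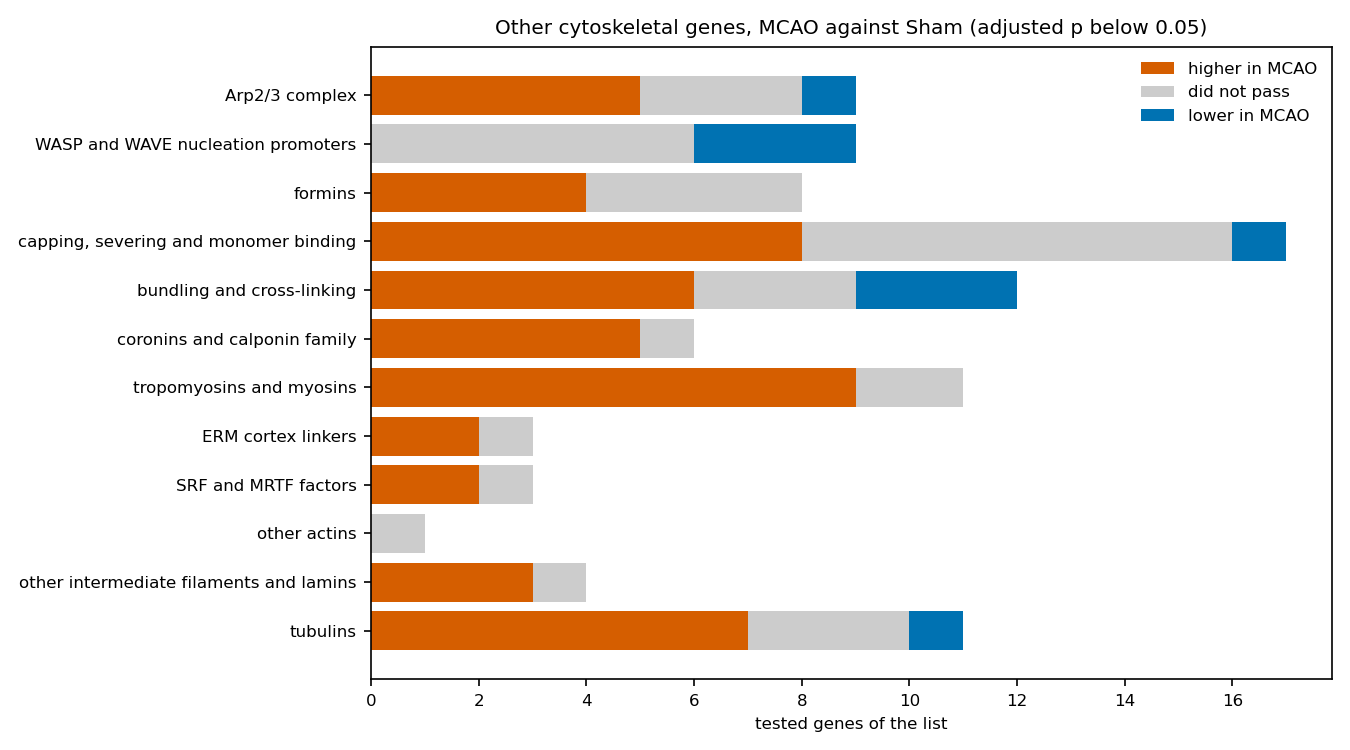
Tested genes of each list of other cytoskeletal genes in MCAO against Sham, as stacked bars of genes higher in MCAO, not passing and lower in MCAO (limma, adjusted p below 0.05). The tropomyosins and myosins have 9 of 11 genes higher, and the WASP and WAVE list has 0 of 9 higher and 3 lower.

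Scaling moved the centre of this comparison. The median log2 fold change of all tested genes was 0.25 as fitted, 0.24 with equal totals, -0.03 under quantile normalization and 0.02 after the length and GC correction. Calls split into 2654 higher and 1600 lower as fitted, 2084 and 2164 under quantile normalization and 2092 and 1990 after the length and GC correction. The members' median stayed above that of all genes in each case, at 1.5, 1.11 and 1.04 for equal totals, quantile normalization and the length and GC correction. With 8 of 10 called under each of these, the members called were the same as in the fit under equal totals, Tmsb4x higher took the place of Actg1 under quantile normalization, and Tmsb4x lower took it after the length and GC correction. The call of Tmsb4x under quantile normalization rests on its rank among all genes and shows no measured rise.

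The second comparison set MCAO+Ctrl-exos against MCAO, that is, exosomes labelled as control against none. None of the 10 members passed (limma, adjusted p below 0.05), and 0.0738% of all genes did, 8 genes. At an unadjusted p below 0.05 stood 1 member, beside 1181 of all 10846 genes. The median log2 fold change was -0.09 in the members and -0.14 over all genes. The 4 comparisons share libraries, so their values are given side by side and not set against each other.

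**Figure D4:**
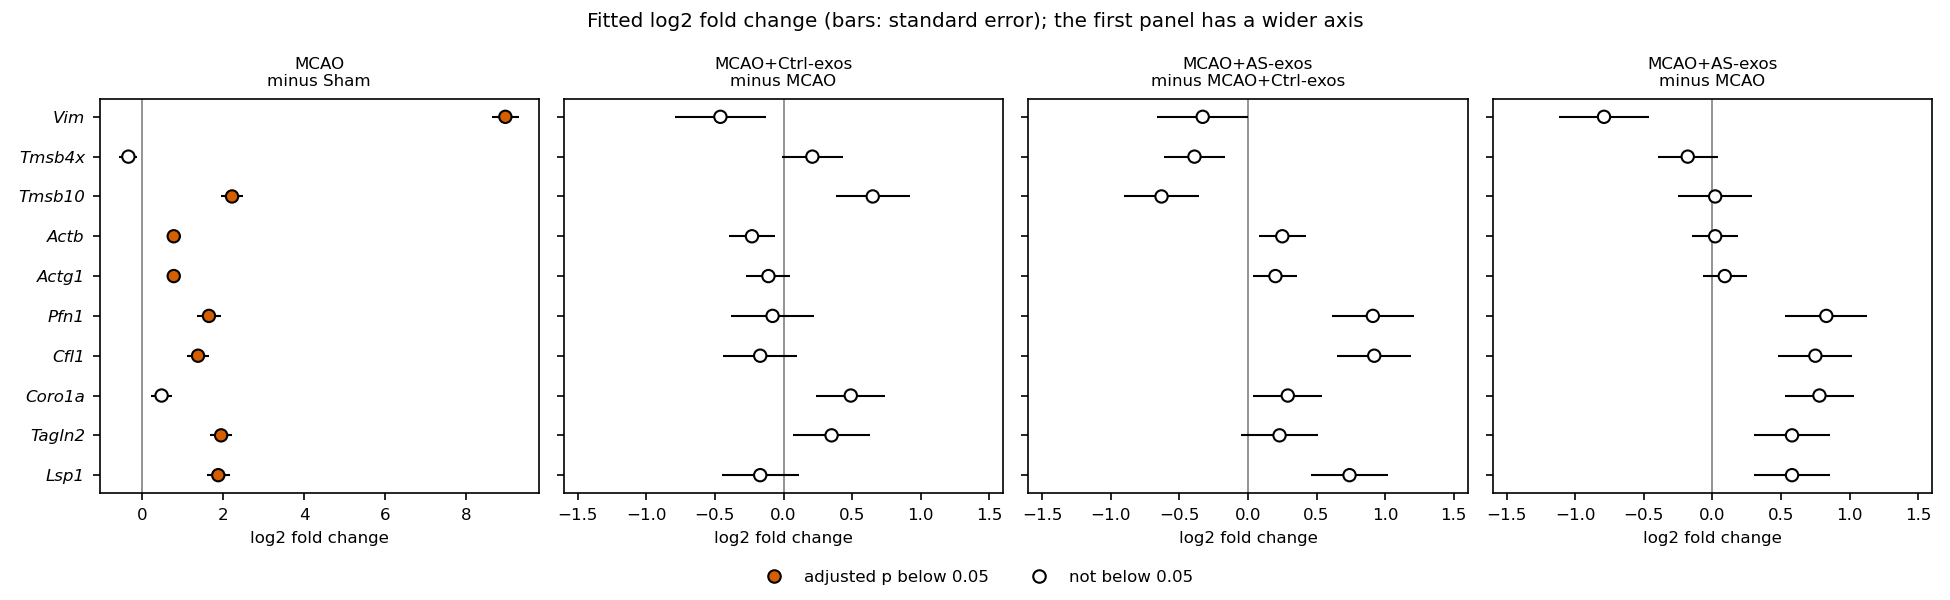
Fitted log2 fold change of each of the 10 genes in the 4 comparisons (1 panel each, bars are the standard error, the first panel has a wider axis), filled where the adjusted p is below 0.05. In MCAO minus Sham 8 points are filled, with Vim at 8.97, and in the other panels none is.

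The member with the unadjusted p below 0.05 was Tmsb10. It was 598.55 FPKM in MCAO+Ctrl-exos replicate 1 and 1652.81, 1617.97 and 1666.63 in replicates 2 to 4, against 730.51 to 901.94 in MCAO. Replicate 1 thus lay under the MCAO range and the other 3 well above it (0.65 ± 0.27, limma adjusted p = 0.385). Without replicate 1 the difference was 1.02 (limma adjusted p = 0.0182), and 89 of all genes passed, in place of 8. As replicate 1 stood apart from its group in Tmsb10 itself, leaving it out is no separate test of the difference. Tmsb4x was also lowest in replicate 1, at 16687.69 FPKM, with 29460.13, 28662.20 and 36573.47 in the others (0.21 ± 0.22, adjusted p = 0.746). The monocyte marker sum was 9593 FPKM in replicate 1 and 16206 to 20346 in the others, with Ly6c2 at 89.0 FPKM in replicate 1 and 446 to 498 in the others; its part was not tested.

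Vimentin was the member whose groups did not overlap: 876.64, 853.34, 967.53 and 905.77 FPKM lay below all MCAO libraries (-0.46 ± 0.33, limma adjusted p = 0.627). Over all genes 5.98% did not overlap in this comparison. Coro1a differed by 0.49 ± 0.25 (adjusted p = 0.493) and was 270.01, 426.30, 388.88 and 381.35 FPKM. Actb was 6826.61, 7167.46, 6631.14 and 6675.69 FPKM, of which the second reached into the MCAO range. Of the 94 other cytoskeletal genes none passed (limma), and their median was -0.25. At an unadjusted p below 0.05 stood 12 of them, beside 1181 of all 10846 genes.

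The third comparison, MCAO+AS-exos against MCAO+Ctrl-exos, set the 2 kinds of exosomes against each other. No member passed (limma, adjusted p below 0.05), beside 0.286% of all genes, 31 genes. At an unadjusted p below 0.05 stood 4 members, beside 2127 of all 10846 genes. The members' median was 0.24 and that of all genes -0.08. In 2 members, Actb and Cfl1, the groups did not overlap, and 10.2% of all genes did not.

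The MCAO+AS-exos libraries fell into replicates 1 to 3 and replicate 4. Cfl1 was 3529.15, 3614.55 and 3494.59 FPKM in replicates 1 to 3 and 1841.41 in replicate 4, beside 1761.30, 1576.97, 1634.89 and 1408.95 in MCAO+Ctrl-exos. The fitted difference was 0.92 ± 0.27 (limma adjusted p = 0.0872), and 1.16 without MCAO+AS-exos replicate 4 (adjusted p = 0.00827). It also passed without Sham replicate 1, which enters through the shared spread (adjusted p = 0.0474). Pfn1 was 2883.06, 3144.32 and 2676.78 FPKM in replicates 1 to 3 and 1424.88 in replicate 4, beside 1131.85 to 1472.52 in MCAO+Ctrl-exos (0.91 ± 0.30, adjusted p = 0.111; 1.17 without replicate 4, adjusted p = 0.0148). In both genes replicate 4 sat at the level of the other MCAO groups. Without that library 1296 of all genes passed, in place of 31.

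Lsp1 followed the same split, with 201.37, 248.53 and 265.89 FPKM in replicates 1 to 3 and 138.39 in replicate 4, beside 95.78 to 150.52 in MCAO+Ctrl-exos (0.74 ± 0.28, limma adjusted p = 0.16; 0.94 without replicate 4, adjusted p = 0.038). Vim ran the other way: 553.61, 587.14 and 584.35 FPKM in replicates 1 to 3 and 1378.79 in replicate 4, beside 853.34 to 967.53 (-0.33 ± 0.33, adjusted p = 0.605). Vim in replicates 1 to 3 was below, and in replicate 4 above, every MCAO+Ctrl-exos library. Tmsb10 was 921.01, 736.15, 689.95 and 988.88 FPKM, between MCAO+Ctrl-exos replicate 1 and replicates 2 to 4 (-0.63 ± 0.27, adjusted p = 0.211; -1.0 without MCAO+Ctrl-exos replicate 1, adjusted p = 0.0308). With MCAO+AS-exos replicate 4 and MCAO+Ctrl-exos replicate 1 both left out, 4 members passed: Pfn1 (1.2, adjusted p = 0.0244) and Cfl1 (1.21, adjusted p = 0.0126) higher, and Tmsb4x (-0.74, adjusted p = 0.0161) and Tmsb10 (-1.08, adjusted p = 0.00242) lower. Over all genes 1089 then passed. Both libraries stood apart from their groups in some of these same members, so leaving out either or both is no separate test of the difference.

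The split of the MCAO+AS-exos libraries was not limited to the members. Monocyte markers summed to 24436 to 26693 FPKM in replicates 1 to 3 and to 10167 in replicate 4, and neutrophil markers to 6524 to 8192 and to 3539. Single monocyte markers did not all follow the sum. Ly6c2 was 205.59 to 324.11 FPKM in replicates 1 to 3 and 121.1 in replicate 4, whereas Ccr2 was 118.1 to 199.2 and 272.72. Of the 12 monocyte markers 1 was higher and 1 lower in MCAO+AS-exos against MCAO (limma, adjusted p below 0.05), with a median log2 fold change of 0.04. The antigens used for staining went the other way from the 2 sums: Ptprc, which encodes CD45, was 46.8 to 64.77 FPKM in replicates 1 to 3 and 116.32 in replicate 4, and Itgam, which encodes CD11b, was 52.05 to 62.69 and 146.22. Endothelial markers summed to 3.67 to 28.41 FPKM in replicates 1 to 3 and to 65.34 in replicate 4. These values move with the members' split, and their part in it was not tested. The labels give no batch.

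**Figure D5:**
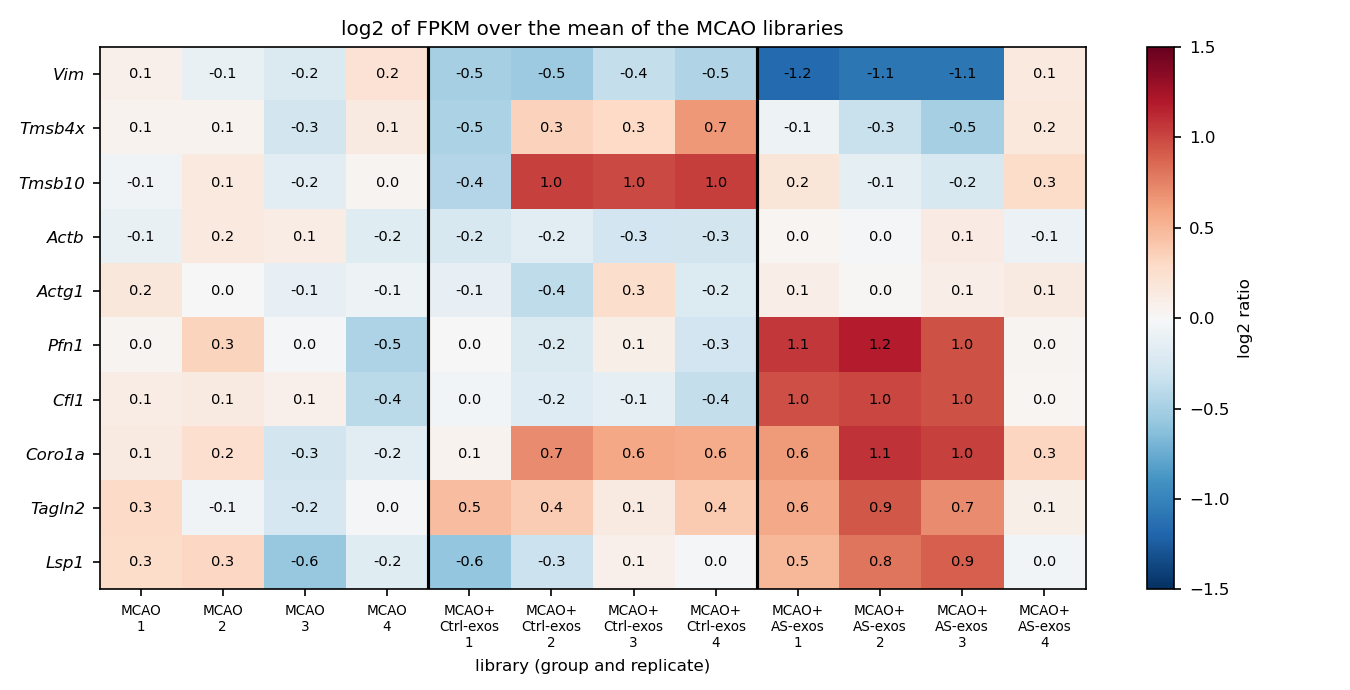
Log2 of FPKM over the mean of the MCAO libraries for the 10 genes (rows) in the 12 libraries of the 3 MCAO groups (columns), red for higher and blue for lower. MCAO+AS-exos replicates 1 to 3 have Pfn1 and Cfl1 about 1 log2 unit up and Vim about 1 down, replicate 4 does not, and Tmsb10 is up by about 1 in MCAO+Ctrl-exos replicates 2 to 4.

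Against MCAO without exosomes, the MCAO+AS-exos libraries gave no member that passed either (limma, adjusted p below 0.05), beside 6.14% of all genes, 666 genes. At an unadjusted p below 0.05 stood 4 members, beside 2785 of all 10846 genes. Here Coro1a was the member without overlap, beside 14.4% of all genes: 402.90, 552.06, 528.95 and 324.61 FPKM stood above the highest MCAO library at 308.24 (0.78 ± 0.25, limma adjusted p = 0.0672). Vim was -0.79 ± 0.33 (adjusted p = 0.135), Pfn1 0.83 ± 0.30 (adjusted p = 0.0937) and Cfl1 0.75 ± 0.27 (adjusted p = 0.0941). Without MCAO+AS-exos replicate 4 these 4 genes passed, with Vim at -1.1 (adjusted p = 0.0175), Pfn1 at 1.09 (0.0158), Cfl1 at 0.99 (0.0142) and Coro1a at 0.93 (0.0183). Over all genes 2024 then passed, in place of 666. Since that library stood apart from its group in some of these same members, leaving it out is no separate test. Without Sham replicate 1, Pfn1 (adjusted p = 0.0469), Cfl1 (0.0426) and Coro1a (0.0368) passed.

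Tagln2 was 275.17, 355.64, 304.71 and 197.68 FPKM (0.58 ± 0.28, limma adjusted p = 0.196) and Lsp1 differed by 0.58 ± 0.28 (adjusted p = 0.204). The actins moved little in this comparison: Actb was 8249.88, 7962.06, 8796.50 and 7578.82 FPKM (0.02 ± 0.17, adjusted p = 0.958) and Actg1 1655.99, 1562.03, 1651.73 and 1690.16 (0.09 ± 0.16, adjusted p = 0.757), and both ranges overlap those of MCAO. So did the thymosins, with Tmsb10 at 0.02 ± 0.27 (adjusted p = 0.971) and Tmsb4x at -0.18 ± 0.22 (adjusted p = 0.647). Tmsb4x passed under quantile normalization (-1.14, limma adjusted p = 0.0453). Its mean level ranked 1 in MCAO and 2 in MCAO+AS-exos, and that method sets values by rank, so this shows no measured fall.

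Among the 94 other cytoskeletal genes 7 passed in MCAO+AS-exos against MCAO, 3 higher and 4 lower, with a median of -0.18. This share, 7.45%, was near the 6.14% of all genes, so the count at this threshold shows nothing particular to these lists. At an unadjusted p below 0.05 (limma) stood 35 of the 94, beside 2785 of all 10846 genes. Higher were Arpc4 of the Arp2/3 complex (118 to 211 FPKM, 0.83 ± 0.24, limma adjusted p = 0.0492), Brk1 of the WAVE complex (227 to 447, 0.97 ± 0.23) and the plastin Pls3 (0.48 to 3.43, 1.59 ± 0.46). Lower were Srf (17.0 to 5.83 FPKM, -1.81 ± 0.44), the WAVE protein Wasf2 (-1.59 ± 0.37), the formin Inf2 (-1.54 ± 0.43) and the cross-linker Marcks (-1.26 ± 0.32). These calls were near the threshold: 3 genes passed under quantile normalization, 1 after the length and GC correction, 0 with only the 8 libraries compared in the fit, 0 when any one of the MCAO libraries or MCAO+AS-exos replicate 1, 2 or 3 was left out, and 4 without MCAO+Ctrl-exos replicate 2 or 4, while 24 passed without MCAO+AS-exos replicate 4, 27 without that library and MCAO+Ctrl-exos replicate 1 together, and 46 with library weights (15 higher and 31 lower). Calls over all genes rose too, from 666 to 2024 without MCAO+AS-exos replicate 4, 2145 without both libraries and 3955 with library weights. Against MCAO+Ctrl-exos none of the 94 passed (25 at an unadjusted p below 0.05, beside 2127 of all 10846 genes), while 20 did without MCAO+AS-exos replicate 4, 13 without the same 2 libraries, 36 with library weights, 3 without Sham replicate 1, and 1 without Sham replicate 4 or under quantile normalization. Over all genes 1296 passed without MCAO+AS-exos replicate 4, 1089 without the 2 libraries and 3266 with library weights. These rises were thus not limited to the cytoskeletal lists. The shares of the lists and of all genes in these settings were not tested against each other.

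Over the 12 libraries of the 3 MCAO groups, some members varied together, as a description of libraries that share group and composition. Pfn1 and Cfl1 had a Pearson r of 0.981 (log2(FPKM + 1), 12 libraries) and Tmsb4x and Tmsb10 one of 0.892, whereas Actb and Actg1 had 0.18. Vim ran against Tagln2 (-0.816), Pfn1 (-0.792), Cfl1 (-0.776) and Coro1a (-0.766). Among 10528 genes, those most like Vim were Anp32e (0.968), Mbd2 (0.955), Eid1 (0.953), Oxsr1 (0.95) and Zdhhc21 (0.946). Those most like Tmsb4x were Aif1 (0.946), which encodes the microglia and macrophage protein IBA1, the myosin light chain Myl6 (0.927), Rpl5 (0.914), Uqcrh (0.907) and Ufm1 (0.901). Those most like Coro1a were the ribosomal protein gene Rplp0 (0.95), Fxyd5 (0.941), Brk1 (0.933), Mrps18a (0.922) and Syngr2 (0.921).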

How the data were processed

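RNA of sorted cells was measured in 16 libraries, 4 per group, grouped by the sample titles. Per the labels' protocols, cDNA was amplified and made into transposon-based libraries that were circularized. The submitters' processing notes name HISAT2, Bowtie2, RSEM 1.3.1 and the build GRCm39.p6, with no role for each. The deposited values were read as FPKM, since RSEM is named and the totals differ between libraries. No source names the unit, and TPM of part of the genes is possible. The deposited table and the 16 single-library files held the same values. They hold no counts, and their decimals were too coarse to recover reads, so precision rests on the spread between libraries.

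Values were taken as log2(FPKM + 1), and the 10846 genes that reached 1 FPKM in 4 or more libraries were fitted in 1 model of 4 group means (limma 3.58.1, R 4.3.3, lmFit, eBayes with trend and robust), two-sided, with Benjamini-Hochberg adjustment over these genes and a threshold of 0.05. The script was tested on simulated data. Ratios were tested by exact permutation. Members and lists were chosen with earlier results of these data known, and direction counts over a list describe it without a test. Named were all members, up to 3 called genes per list with the smallest p in MCAO against Sham, every listed gene called in the exosome comparisons, and the 5 genes most correlated with Vim, Tmsb4x and Coro1a, predicted gene models left out. Alternatives were no trend, quantile normalization, equal totals, no low-value filter or one at 5 FPKM, 0.1 as pseudocount, library weights, the replicate number as a block, the 8 libraries compared alone, a fold change of 2 beside the threshold, leaving out each library, and leaving out 2 libraries together. A correction for transcript length and GC content, which subtracts a smooth trend from each library (GENCODE M21 transcripts, 13366 genes matched), was added after seeing the data, as were the alternatives of the other cytoskeletal genes. Cd3e, Cldn5, Col1a1 and Gfap were not analysed here. Results of 1 further list of cytoskeletal genes are not reported here.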

Additional observations from a re-analysis of the deposited data

Results flagged for a closer look

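In each group of 4 libraries, on the log2(FPKM + 1) scale, the distance of the highest or lowest library to its neighbour was divided by the range of the group for every member. In 4 of the 40 groups tested this share was above Dixon's critical value at the 95% level, and chance alone gives some such cases at that level. Vim in MCAO+AS-exos replicate 4, at 1378.79 FPKM, stood above the other 3 libraries with a share of 0.936. Cfl1 in the same library, at 1841.41 FPKM, stood below them with a share of 0.95. Cfl1 in MCAO replicate 4, at 1364.7 FPKM, was low with a share of 0.895. Tmsb10 in MCAO+Ctrl-exos replicate 1, at 598.55 FPKM, was low with a share of 0.971. On the FPKM scale the same 4 were above it, and so was Vim in Sham replicate 1, at 4.31 FPKM, with a share of 0.83, only just above it.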

How the results depend on the processing

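Over 28 alternatives, 1056 of 1120 values of single members kept their direction and their side of the threshold, 4 no longer passed, 36 passed where they had not and 24 changed sign. In MCAO against Sham, 8 members passed under all of them except a fold change of 2 beside the threshold, where 6 did. Under quantile normalization and after the length and GC correction the 8 held Tmsb4x and not Actg1. The count in MCAO+Ctrl-exos against MCAO was 0 to 1 with single libraries left out and 1 without MCAO+AS-exos replicate 4 and MCAO+Ctrl-exos replicate 1 together. In MCAO+AS-exos against MCAO+Ctrl-exos it was 0 to 3 with single libraries left out, 6 with library weights and 4 without those 2 libraries. In MCAO+AS-exos against MCAO it was 0 to 4, 6 and 4, and 1 under quantile normalization. The cause of these changes was not tested.

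Sign changes lay near 0 apart from Tmsb4x, at 0.88, a value set by its rank, in MCAO against Sham under quantile normalization. Coro1a there was -0.14 after the length and GC correction. In MCAO+Ctrl-exos against MCAO, Tmsb4x was -0.32 under quantile normalization and -0.05 after the length and GC correction, and Pfn1 spanned -0.22 to 0.04 with single libraries left out. In MCAO+AS-exos against MCAO+Ctrl-exos after the length and GC correction, Actb was 0.0 and Actg1 -0.02. In MCAO+AS-exos against MCAO, Tmsb10, Actb and Actg1 were -0.06, -0.18 and -0.01 under quantile normalization and -0.11, -0.11 and -0.03 with equal totals; Tmsb10 and Actb were -0.1 and 0.0 with library weights and -0.06 to 0.11 and -0.04 to 0.07 with single libraries left out; Tmsb10 was -0.06 without the 2 libraries, and Actb and Actg1 were -0.17 and -0.07 after the length and GC correction. The ratio of Actg1 to Actb spanned -0.1 to 0.1 with single libraries left out (log2), and that of Tmsb10 to Tmsb4x 2.36 to 2.76.

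Over all genes the calls spanned 3699 to 4450, 2 to 89, 1 to 1296 and 0 to 2024 in the 4 comparisons, in the order above, with single libraries left out. The highest counts came without MCAO+Ctrl-exos replicate 1 (89) and without MCAO+AS-exos replicate 4 (1296 and 2024), and the lowest without MCAO+Ctrl-exos replicate 4 (2) and without MCAO+AS-exos replicate 2 or 3 (1 and 0). MCAO+Ctrl-exos against MCAO gave 2 without trend, 5 with equal totals, 4 with no filter, 59 with library weights, 3 with the 8 libraries compared alone, 5 after the length and GC correction and 167 without the 2 libraries. MCAO+AS-exos against MCAO+Ctrl-exos gave 16 without trend, 88 under quantile normalization, 93 with a minimum of 5 FPKM, 3266 with weights, 9 with 8 libraries and 1089 without the 2. MCAO+AS-exos against MCAO gave 318 under quantile normalization, 3955 with weights, 31 with 8 libraries, 193 after the length and GC correction and 2145 without the 2.

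No pairing of libraries by replicate number was evident: residuals of the 24 same-numbered pairs correlated at -0.148 to 0.092. Of 48 best matches, each picked from the 4 libraries of another group, 16 were with the own number. This check cannot exclude that same-numbered libraries shared a step of handling. The fit with the replicate block called 8 members in MCAO against Sham and 0 in the other comparisons, and over all genes 5 in MCAO+Ctrl-exos against MCAO and 68 in MCAO+AS-exos against MCAO+Ctrl-exos. Of the other cytoskeletal genes, 4 passed under the block in MCAO+AS-exos against MCAO, in place of 7.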
